A study of Arabidopsis thaliana with 22 samples.

Results

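Root epidermal cells of the Arabidopsis thaliana mutant atscl26 were compared with those of the wild type Col0, both after nitrate treatment, across 31524 transcript models of 27143 loci. The comparison rests on 6 of the 22 arrays of the study, 3 biological replicates of atscl26 epidermis and 3 of Col0 epidermis, each treated with 5 mM KNO3 for 2 h. The arrays were taken by their labelled genotype, cell type and treatment, and no measured value entered the choice. The other 16 arrays hold the same genotypes in epidermis under the KCl control and in cortex under both treatments. The sample titles name that control KCl, whereas the protocol describes fresh plates with 0.1 mM KNO3. The mutant allele is written atscl26-2 in the header of the authors' deposited table of averages. Seedlings of both genotypes carried a GFP reporter of the sorted cell type and were raised on medium holding 0.1 mM KNO3 and 30 mM sucrose, for 9 days by the protocol and 12 days by the source names. Roots were digested to protoplasts, GFP-marked cells were isolated by fluorescence-activated sorting, and amplified, Cy3-labelled material from their RNA was read on 1-colour NimbleGen arrays. The sources used here give neither the reporter lines, nor the type of mutation, nor the number of plants per replicate, so the p-values measure the spread between arrays. For single models, p-values and standard errors take that spread from all 22 arrays in their 8 groups, not from these 6 alone.

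SCL26 belongs to the GRAS family of plant transcription regulators, which also holds the DELLA proteins. DELLA proteins restrain growth until gibberellin binds its receptor GID1 and an F-box protein such as SLY1 marks them for degradation. The root epidermis forms the soil interface, with hair cells and non-hair cells in files, and it carries transporters for nitrate, ammonium and water. Nitrate acts in roots both as a nutrient and as a signal, and the title of the series links SCL26 to gibberellin, nitrogen and root architecture.

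Levels below are log2 values from robust multi-array averaging (RMA), and differences are atscl26 minus Col0, so that a difference of 1 is a 2-fold change. Array medians over the study lay between 8.78 and 9.04. Among the 6 arrays, Col0 replicate 3 stood apart, with an SD over models of 2.24 against 2.47 to 2.5 in the other 5. Its median correlation with all other arrays was 0.80. The median correlations of atscl26 replicates 1, 2 and 3 were 0.898, 0.904 and 0.893, and those of Col0 replicates 1 and 2 were 0.868 and 0.887.

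The cell type markers divided the atscl26 arrays. WER, which sets non-hair cell fate, had levels of 13.15, 10.54 and 8.62 in atscl26 replicates 1, 2 and 3, against 13.20, 11.92 and 13.39 in the Col0 replicates. RHD6, a factor that starts root hair formation, had levels of 12.43, 10.38 and 7.90 in atscl26, against 12.44, 13.05 and 12.59 in Col0. Both genes were at the Col0 level in atscl26 replicate 1 and lower in replicates 2 and 3. AT1G62510, used as a cortex marker, had levels of 7.74, 11.37 and 11.86 in atscl26, against 7.95, 7.61 and 9.30 in Col0. C/VIF2, a second gene that marks cortex here, had 8.97, 10.49 and 11.89 in atscl26, against 8.64, 8.06 and 9.98 in Col0. These 2 cortex genes thus ran opposite to WER and RHD6 over the atscl26 arrays. AT1G62500, also written down as a cortex marker, had 8.35, 8.15 and 10.66 in atscl26, against 8.46, 8.04 and 9.94 in Col0. Of the atscl26 arrays it was thus high only in replicate 3. AT1G09750, a further cortex gene, lay wholly above Col0 in atscl26, replicate 1 included (difference 3.31 ± 1.12). Both were left out of the marker list because their symbols had no match.

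An epidermis score was taken per array from 8 epidermis markers, WER, GL2, MYB23, EGL3, RHD6, COBL9, EXPA7 and EXPA18. It was their mean minus the mean of the 2 cortex markers used, AT1G62510 and C/VIF2. AT1G62500 and AT1G09750 were on the arrays but did not enter. The score was 1.14, -2.52 and -4.60 in atscl26 replicates 1, 2 and 3, against 1.33, 1.1 and 0.10 in Col0. The median score was 0.75 over the 11 arrays labelled epidermis and -1.93 over the 11 labelled cortex. By this score replicates 2 and 3 of atscl26 went against their label, and 4 of 11 epidermis and 2 of 11 cortex arrays lay nearer the other cell type. The wider marker lists were less clear for replicate 2. Means of the 15 root hair genes were 9.43, 9.54 and 9.00 in atscl26, against 9.49, 9.23 and 9.48 in Col0. Means of the 10 non-hair genes were 10.59, 9.49 and 8.74 in atscl26, against 10.63, 9.71 and 10.61 in Col0. The labels are kept here as names of the groups, and list medians or genes that moved most without atscl26 replicates 2 and 3 are also given without them. In pools of sorted cells, fewer cells of a type and less RNA per cell cannot be told apart.

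**Figure D1:**
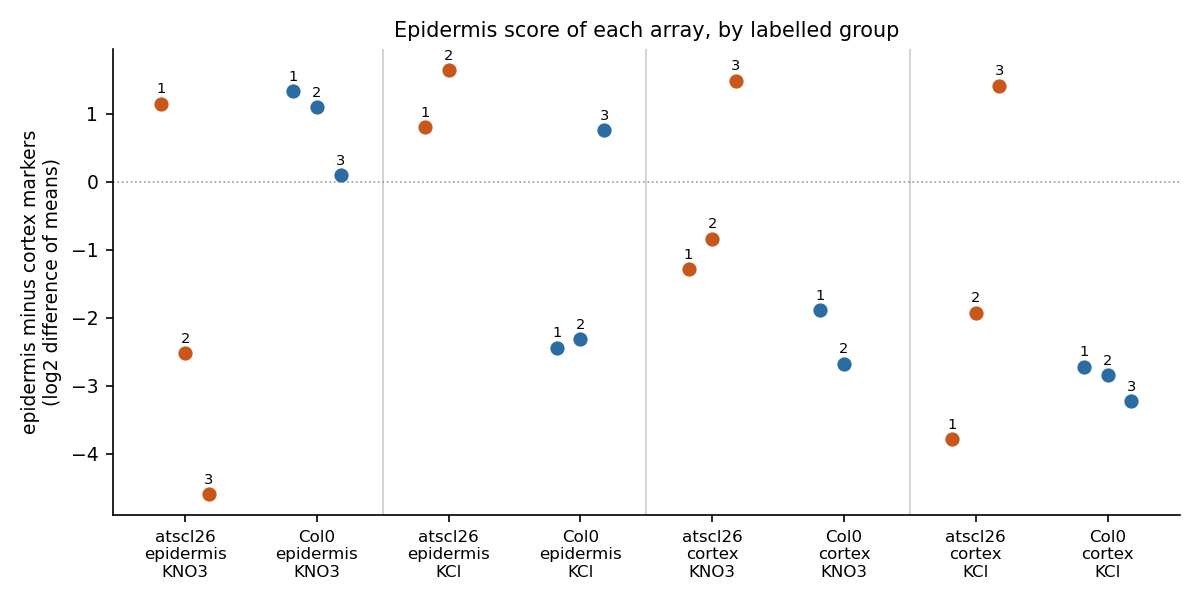
Epidermis score (log2 difference of marker means, vertical axis) of each of the 22 arrays by labelled group, with the replicate number above each point. Replicates 2 and 3 of atscl26 epidermis KNO3 lie at -2.52 and -4.60, below replicate 1 at 1.14 and the 3 Col0 epidermis KNO3 arrays at 0.10 to 1.33.

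Of the marker lists, the 7 root cap genes separated the groups. Their mean was 8.37, 7.37 and 6.96 in atscl26 replicates 1, 2 and 3, against 8.38, 8.86 and 9.04 in Col0, a difference of -1.2 (exact permutation p = 0.1, two-sided, the smallest p that 3 against 3 arrays allow). The groups did not overlap, but atscl26 replicate 1 lay just below Col0 replicate 1. The 2 cortex genes averaged 10.4 ± 1.82 in atscl26 and 8.59 ± 0.94 in Col0 (SD, n = 3 each, exact permutation p = 0.2), and the 10 non-hair genes averaged 9.60 ± 0.93 in atscl26 and 10.3 ± 0.53 in Col0 (p = 0.2, exact). The 15 root hair, 10 endodermis and 14 stele genes differed by -0.08, 0.28 and -0.15 (exact p = 0.7, 0.8 and 0.4). After Benjamini-Hochberg adjustment over the 7 marker measures, all exact p-values were 0.467 or above.

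No transcript model passed an adjusted p under 0.05 between atscl26 and Col0 epidermis under KNO3 (limma, Benjamini-Hochberg over 31524 models, n = 3 each), which is 0 % of the models tested. The smallest adjusted p was 0.0664, for MAN2. An unadjusted p under 0.05 was reached by 1633 models, 5.18 % of all, of which 1004 (3.18 %) were higher in atscl26 and 629 (2 %) lower. The median standard error of a difference was 0.688. The 3 atscl26 arrays lay wholly above the 3 Col0 arrays for 1756 models (5.57 %) and wholly below them for 3471 (11 %).

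The excess of non-overlapping models below Col0 lay among dim models. With all models put in 4 equal classes by mean level over all arrays, from the dimmest to the brightest, 1730, 1006, 434 and 301 models lay wholly below Col0, and 114, 283, 602 and 757 lay wholly above it. The median difference in the same classes was -0.25, -0.36, 0.07 and 0.19, against -0.12 over all models. Without Col0 replicate 3, the array with the narrow spread of values, those 4 medians were -0.08, -0.12, -0.03 and 0.03. Small negative differences of dim genes and small positive differences of bright genes below are therefore to be read beside these background values. Of all models, 42 % had a difference above 0.

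MAN2 (AT2G20680), an endo-mannanase that cuts mannans of the cell wall, gave the smallest p of the comparison. Its level was 10.03, 11.94 and 11.48 in atscl26 replicates 1, 2 and 3, against 6.08, 6.30 and 6.70 in Col0. All atscl26 arrays were high and all Col0 arrays were dim, with no overlap. The difference was 4.79 ± 0.70 (SE), or 27.7-fold, with an adjusted p of 0.0664. Without atscl26 replicates 2 and 3 the difference was 3.67.

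The 15 named genes on the higher side, those with a symbol and the smallest p, had differences from 1.51 to 4.79 and adjusted p-values from 0.0664 to 0.645. FER1, a plastid ferritin that stores iron, had levels of 10.86, 11.68 and 11.60 in atscl26, against 7.62, 8.76 and 9.05 in Col0, a difference of 2.91 ± 0.57 (adjusted p = 0.45). SRC2, a membrane-bound C2-domain protein, had 13.52, 13.00 and 13.77 in atscl26, against 8.84, 12.43 and 10.07 in Col0, a difference of 2.98 ± 0.66. The Col0 arrays differed among themselves by far more than the atscl26 arrays for SRC2. SR1 (AT5G01820), a CBL-interacting protein kinase, showed the same spread, with 12.86, 12.68 and 13.85 in atscl26 and 8.41, 11.96 and 9.30 in Col0 (difference 3.24 ± 0.80).

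XERICO, a RING protein that raises abscisic acid levels, had levels of 10.77, 12.85 and 13.11 in atscl26, against 9.48, 7.43 and 8.02 in Col0 (difference 3.93 ± 0.99, adjusted p = 0.64). PPCK1, the kinase that activates phosphoenolpyruvate carboxylase and so supplies carbon for amino acid synthesis, had 12.61, 13.55 and 13.25 in atscl26, against 9.34, 10.16 and 11.19 in Col0. Its difference was 2.91 ± 0.74, and its second model gave 2.23 ± 0.70. The first model of PPCK1 did not overlap between the groups. The factors TCP8, GATA11 and RKD5 (an RWP-RK protein, the class of factors that also holds the nitrate-responsive NLPs) differed by 2.35 ± 0.54, 1.51 ± 0.37 and 1.84 ± 0.45. A second model of TCP8 differed by 0.53 ± 0.55, so the 2 models of that gene gave unlike values. LSD1, a zinc finger protein that restrains cell death, differed by 2.2 ± 0.53 and 2.5 ± 0.68 in its 2 models. JAZ10 and TIFY7 are described with the jasmonate genes, and the rest of the 15 were DAC, ASY1 and QWRF8, with differences of 2.12 ± 0.43, 3.17 ± 0.80 and 2.64 ± 0.59. ASY1 is known for its role on meiotic chromosome axes. Without atscl26 replicates 2 and 3, the differences of XERICO and ASY1 were 2.47 and 1.95.

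On the lower side, the 15 named genes had differences from -1.60 to -3.51 and adjusted p-values from 0.214 to 0.769. The model of emb2738 (AT3G12080), a GTP-binding protein needed in embryos, had levels of 6.95, 6.67 and 6.89 in atscl26, against 10.08, 9.87 and 11.09 in Col0. The atscl26 arrays were tightly grouped at a low level and did not overlap with Col0. The difference was -3.51 ± 0.59, 11.4-fold lower in atscl26, with an adjusted p of 0.214. The second model of emb2738 differed by only -0.88 ± 0.57, so the 2 models of that locus disagreed in size.

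TRB1, a protein that binds telomere repeats, had levels of 8.97, 8.90 and 9.77 in atscl26, against 11.81, 11.65 and 11.63 in Col0, a difference of -2.48 ± 0.47 (adjusted p = 0.45). AUR1, a mitotic aurora kinase, had 7.30, 5.98 and 6.45 in atscl26, against 9.17, 8.82 and 8.07 in Col0 (difference -2.11 ± 0.57). ICK3, an inhibitor of cyclin-dependent kinases, had 8.20, 8.56 and 8.81 in atscl26, against 11.27, 9.50 and 12.44 in Col0 (difference -2.55 ± 0.69). Both a mitotic kinase and a cell cycle inhibitor thus stood on the lower side. PHO2, a ubiquitin-conjugating enzyme that limits phosphate transport to the shoot, had 8.92, 9.33 and 8.74 in atscl26, against 10.87, 12.16 and 11.49 in Col0 (difference -2.51 ± 0.70, adjusted p = 0.745). No Col0 array of PHO2 came within the atscl26 range.

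The other lower genes were of mixed function. MEF1, a mitochondrial RNA editing factor, differed by -1.96 ± 0.52, the embryo-defective genes EMB1006 and EMB3108 by -2.88 ± 0.78 and -2.89 ± 0.71, and RUS2, a gene of root ultraviolet-B responses, by -2.44 ± 0.65. TAF12, a subunit of the general transcription factor TFIID, differed by -2.65 ± 0.66 and the DNA ligase gene ATLIG4 by -1.60 ± 0.46. TPD1, MAKR5 and RLP48 differed by -2.23 ± 0.54, -1.78 ± 0.49 and -2.01 ± 0.55. TPD1 is known as a secreted peptide of anther development, and MAKR5 as a regulator in receptor kinase signalling. Without atscl26 replicates 2 and 3, the differences of TPD1, EMB3108 and AUR1 were -0.95, -1.22 and -1.39. The second model of the proton pump gene HA2 (AT4G30190) differed by -3.39 ± 0.97, but the first, much brighter model differed by 0.10 ± 0.35 around levels of 14.32 ± 0.08 in atscl26 and 14.22 ± 0.48 in Col0. The groups did not overlap for the picked model of any of the 30 named genes. These models were picked for the smallest p of this same difference, so that lack of overlap is a description only. Over all models the share without overlap was 16.6 % in either direction. The other models of TCP8, RUS2 and HA2 overlapped between the groups.

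**Figure D2:**
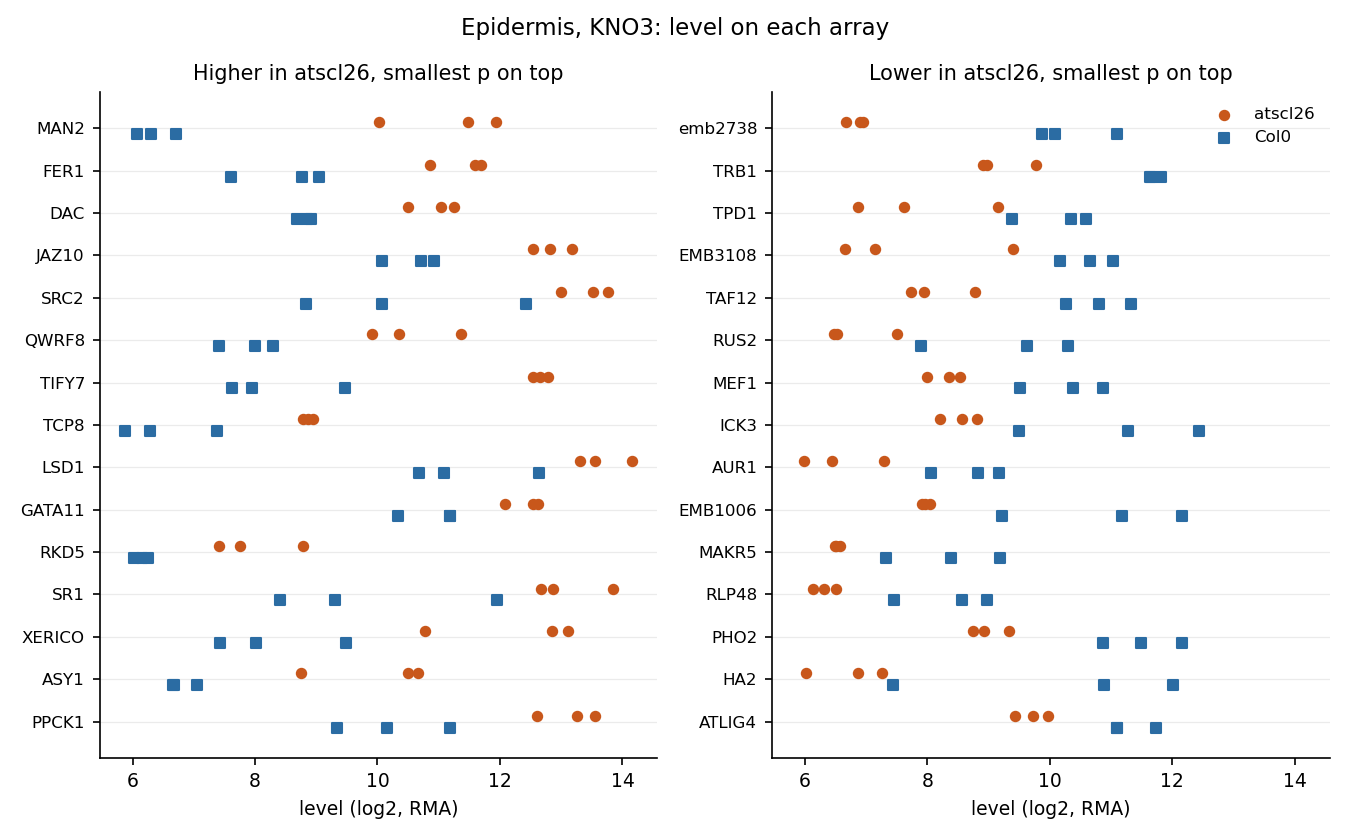
Level (log2, horizontal axis) on each of the 3 atscl26 arrays (circles) and 3 Col0 arrays (squares) for the 15 named genes higher and the 15 lower in atscl26. No model shown overlaps between the groups, but the models were picked for the smallest p of this difference. The genes with the smallest p, MAN2 and emb2738, differ by 4.79 and -3.51.

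The 30 named genes were also placed among all 8 groups of the study. The mean of Col0 epidermis KNO3 lay below all 6 groups outside this comparison for 14 of the 15 higher genes and above all 6 for 15 of the 15 lower genes. The mean of atscl26 epidermis KNO3 lay above those 6 groups for 7 of the 15 higher genes and below them for 7 of the 15 lower genes. Over all 31524 models atscl26 epidermis KNO3 lay above the other 6 groups for 2630 and below them for 8150, and Col0 epidermis KNO3 lay above them for 3249 and below them for 3648, so that over all models atscl26 was outside the other groups more often than Col0. Because the named genes were picked on the difference between these 2 groups, their place is a description only. MAN2, for example, averaged 11.15 in atscl26 epidermis KNO3 and 6.36 in Col0 epidermis KNO3, with 8.79 to 11.37 in the 6 other groups. The emb2738 model averaged 6.84 in atscl26 and 10.34 in Col0, with 6.87 to 10.20 in the others.

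SCL26 itself (AT4G08250) had levels of 9.09, 8.74 and 8.30 in atscl26, against 7.94, 8.82 and 7.58 in Col0. The groups overlapped, and the difference was 0.59 ± 0.83 (adjusted p = 0.947). Where its probes lie relative to the mutation is not known here, so this level does not check the genotype label. Of 27 GRAS genes outside the DELLA group written down, 14 were used, SCL26 included. The others were on the arrays but had no matched name and were left out. Of the 14 used, 10 were higher and 4 lower in atscl26, with a median difference of 0.57. None passed the threshold. SCL27, a microRNA-targeted GRAS factor of meristems, had 10.88, 11.83 and 12.10 in atscl26, against 10.59, 9.71 and 10.13 in Col0 (difference 1.46 ± 0.58, unadjusted p = 0.0218). SCL14, a factor of detoxification responses, had 10.48, 10.67 and 11.16 in atscl26, against 9.69, 9.86 and 7.65 in Col0 (difference 1.70 ± 0.84). Both genes separated the groups, as did SCL8 at 0.85 ± 0.51. Of the 14 used, 3 lay wholly above Col0 and 1 wholly below. The shares over all models were 5.57 % above and 11 % below. SCL3, which promotes gibberellin responses, differed by 1.15 ± 0.92, and the endodermis regulators SHR and SCR by -0.59 ± 0.87 and 0.20 ± 0.80.

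Among the gibberellin signalling genes SLY1 had the smallest p. SLY1, the F-box protein that targets DELLA proteins, had levels of 11.07, 10.40 and 11.60 in atscl26, against 8.43, 7.88 and 7.36 in Col0. All 3 atscl26 arrays were higher than every Col0 array. The difference was 3.13 ± 0.84 (unadjusted p = 0.00163, adjusted p = 0.705), and with atscl26 replicate 1 alone it was 3.18. The related F-box gene SNE differed by -0.62 ± 0.98. The DELLA genes GAI, RGA1, RGL1, RGL2 and RGL3 differed by 0.17 ± 0.44, 0.51 ± 0.60, -0.82 ± 0.55, -0.04 ± 0.55 and 0.31 ± 0.55. The receptor genes GID1A, GID1B and GID1C lay within 0.33 of 0. Over the 13 signalling genes 6 were higher and the median was -0.02.

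Of 14 gibberellin biosynthesis genes, 8 were higher in atscl26 and 6 lower, with a median of 0.55. GA3OX1, which makes bioactive gibberellin, had 6.90, 11.02 and 11.73 in atscl26, against 7.23, 6.38 and 7.17 in Col0. Only replicates 2 and 3 of atscl26, the arrays with a low epidermis score, were high, and the difference of 2.96 ± 1.49 became -0.03 without them. GA20OX2, of the step before, differed by 1.14 ± 0.77 and by -0.49 without the same arrays. GA3OX4 had 7.72, 7.29 and 6.16 in atscl26, against 9.08, 8.82 and 7.99 in Col0, with no overlap (difference -1.57 ± 0.51, unadjusted p = 0.00688). The early enzyme gene GA3 differed by -1.57 ± 0.89 and KAO1 by 1.43 ± 0.74, each without overlap. The 14 genes thus ran in both directions, and their median was -0.29 without atscl26 replicates 2 and 3 and 0.17 without Col0 replicate 3. Of the 9 catabolism genes 3 were higher (median -0.14), and of the 7 GASA peptides, which gibberellin regulates, 3 were higher (median -0.32, and 0.02 without Col0 replicate 3).

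No gene of nitrate uptake or reduction reached an unadjusted p under 0.05 between the genotypes. Of 14 nitrate transport genes 5 were higher and 9 lower in atscl26, with a median of -0.25 beside the -0.12 of all models. The direction turned to 0.07 without Col0 replicate 3 and to 0.20 without atscl26 replicates 2 and 3, where 9 of 14 were higher. NRT1.1, the dual-affinity transporter and nitrate sensor, had 13.51, 11.28 and 12.20 in atscl26, against 13.11, 13.41 and 11.93 in Col0, a difference of -0.49 ± 0.89. NRT3.1, the partner protein of the high-affinity transporters, had 11.98, 9.19 and 7.88 in atscl26, against 10.29, 10.72 and 12.86 in Col0 (-1.61 ± 1.36). It was high in atscl26 replicate 1 and low in replicates 2 and 3, and the difference was 0.69 without those 2 arrays. The vacuolar nitrate exchanger CLC-A went the other way, with 11.61, 13.35 and 13.53 in atscl26 and 12.65, 11.75 and 10.37 in Col0 (1.24 ± 1.1, and 0.02 without atscl26 replicates 2 and 3). NRT2.1, a high-affinity transporter, was at 7.63 to 7.74 in atscl26, against 7.53 to 9.26 in Col0 (-0.52 ± 0.94).

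The reductase genes were bright in all 6 arrays. NIA1, a nitrate reductase, had 13.65, 13.42 and 13.59 in atscl26, against 13.23, 14.21 and 11.61 in Col0, a difference of 0.54 ± 0.53. NIA2, the main nitrate reductase, differed by 0.30 ± 0.45, the nitrite reductase gene NIR1 by -0.11 ± 0.77 and UPM1, for the siroheme cofactor, by -0.06 ± 0.46. The Col0 array with the lowest NIA1, NIA2 and NIR1 was replicate 3, the array with the narrow spread of values. Over the 10 genes of nitrate reduction and reductant supply 6 were higher, with a median of 0.18, and without Col0 replicate 3 the median was -0.21.

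An ammonium and a urea transporter were low in the atscl26 arrays that had a low epidermis score. AMT1;3, a high-affinity ammonium transporter, had 12.13, 8.58 and 7.56 in atscl26, against 11.84, 11.97 and 10.84 in Col0. DUR3, a urea transporter, had 11.37, 7.31 and 6.82 in atscl26, against 9.86, 11.95 and 10.27 in Col0. In both genes replicate 1 was at the Col0 level and the groups overlapped. The differences were -2.13 ± 0.99 (unadjusted p = 0.0451) for AMT1;3 and -2.2 ± 1.26 for DUR3, and without atscl26 replicates 2 and 3 they were 0.58 and 0.67. AMT1;1, the other main root transporter, differed by 0.42 ± 0.72. The cytosolic glutamine synthetase gene GLN1;1 had 13.99, 13.86 and 14.15 in atscl26, against 13.61, 13.71 and 12.96 in Col0, a small difference of 0.58 ± 0.36 without overlap. Of the 20 genes of ammonium uptake and nitrogen assimilation 8 were higher (median -0.11), and the median was 0.13 without Col0 replicate 1 and 0.21 without atscl26 replicates 2 and 3.

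Among 28 regulators of the nitrate response 15 were higher and 13 lower, with a median of 0.11, and of -0.06 without Col0 replicate 3. NLP1, an RWP-RK factor, had 10.87, 10.11 and 10.68 in atscl26, against 12.05, 11.60 and 12.04 in Col0, with no overlap (difference -1.35 ± 0.53, unadjusted p = 0.0201). NLP7, the main nitrate-sensing factor of the family, differed by -0.46 ± 0.65. CPK10, a calcium-dependent kinase that phosphorylates NLPs, differed by -1.22 ± 0.53 (unadjusted p = 0.0322), and its groups overlapped. The bZIP factor TGA1 had 11.15, 10.98 and 10.86 in atscl26, against 11.78, 11.83 and 11.86 in Col0 (difference -0.82 ± 0.70), and CIPK23, a kinase of NRT1.1, differed by -0.80 ± 0.49, both without overlap. The fast nitrate-induced repressors LBD37 and LBD38 differed by 0.11 ± 0.36 and -0.01 ± 0.77. The auxin receptor gene AFB3, which responds to nitrate, differed by 1.83 ± 1.01, and the scaffold gene BT2 by 1.53 ± 0.87.

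Genes of the jasmonate pathway were mostly higher in atscl26. Of 16 genes 14 were higher, against 42 % of all models, and the median difference was 0.88. None passed the threshold, 4 had an unadjusted p under 0.05 on the higher side, where the share over all models was 3.18 %, and 6 lay wholly above Col0, where that share was 5.57 %. These shares cover models of all levels. In the 2 brightest of the 4 level classes 602 and 757 of 7881 models each lay wholly above Col0. The median differences of those classes were 0.07 and 0.19. JAZ10, a repressor that jasmonate itself induces, had 12.54, 12.81 and 13.17 in atscl26, against 10.08, 10.92 and 10.72 in Col0. The 3 models of JAZ10 differed by 2.27 ± 0.49, 2.29 ± 1.08 and 2.22 ± 0.64. TIFY7, the repressor also called JAZ9 and not a member of the list, had 12.78, 12.65 and 12.53 in atscl26, against 7.94, 7.62 and 9.47 in Col0. Its difference was 4.31 ± 0.97, or 19.8-fold, with an adjusted p of 0.45, and its second model gave 3.79 ± 1.14. Both repressors were high in all 3 atscl26 arrays, replicate 1 included.

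JAZ2 had 12.61, 13.81 and 13.63 in atscl26, against 11.49, 10.45 and 11.84 in Col0 (difference 2.09 ± 0.66), and JAZ7 differed by 1.74 ± 0.80. LOX4, a lipoxygenase of jasmonate synthesis, had 13.12, 10.93 and 12.35 in atscl26, against 9.16, 9.78 and 10.86 in Col0 (difference 2.21 ± 1.03). The lowest atscl26 array lay just above the highest Col0 array. With atscl26 replicate 1 alone the median of the list was 0.62 and 13 genes were higher. Col0 replicate 1 had the lowest mean of the list, with 10.59, 10.78 and 11.13 in atscl26 replicates 1, 2 and 3, against 9.26, 9.81 and 10.46 in Col0. Without that array the median was 0.56 and 13 genes were higher.

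Wound and elicitor genes were counted in the same way. Of 14 genes 13 were higher in atscl26, against 42 % of all models, with a median of 0.88. On the higher side 2 had an unadjusted p under 0.05 (limma), where the share over all models was 3.18 %. Only 1 lay wholly above Col0, near the share of 5.57 % over all models. As for the jasmonate list, these shares cover models of all levels, and brighter models lay wholly above Col0 more often. The mean of the list was 12.13, 11.40 and 12.09 in atscl26, against 9.76, 11.24 and 11.34 in Col0. Col0 replicate 1 was the low array here too, and without it the median was 0.33 and 11 of 14 genes were higher. ERF13, an ethylene-response factor induced by stress, had 10.68, 9.89 and 11.40 in atscl26, against 6.90, 7.03 and 8.84 in Col0, without overlap (difference 3.07 ± 1.03, unadjusted p = 0.00815). RBOHD, the oxidase of the defence oxidative burst, had 10.87, 11.39 and 12.47 in atscl26, against 7.5, 11.62 and 9.29 in Col0 (difference 2.1 ± 0.90), and overlapped. Of 13 heat shock genes 10 were higher (median 0.41), but without Col0 replicate 1 there were 6 and the median was -0.06. HSFA2, a heat shock factor, differed by 1.42 ± 0.98. Of 15 ethylene genes 12 were higher (median 0.56, but 0.28 without Col0 replicate 1 and 0.03 without Col0 replicate 3). The ethylene receptor gene ETR2 averaged 12.09 ± 0.15 in atscl26 and 10.69 ± 0.70 in Col0 (SD, n = 3 each, difference 1.40 ± 0.55), and the oxidase gene ACO1 differed by 2.33 ± 1.05 (0.87 without atscl26 replicates 2 and 3).

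Most flavonoid genes were high on those atscl26 arrays that had a low epidermis score. Of 21 phenylpropanoid and flavonoid genes 18 were higher in atscl26, with a median difference of 1.24. The mean of the list was 8.25, 11.14 and 11.33 in atscl26 replicates 1, 2 and 3, against 8.51, 8.96 and 9.11 in Col0. TT4, the chalcone synthase that opens flavonoid synthesis, had 6.10, 13.25 and 12.79 in atscl26, against 6.08, 6.12 and 7.08 in Col0 (difference 4.28 ± 1.55, unadjusted p = 0.0128). Replicate 1 of atscl26 was as low as Col0. FLS1, flavonol synthase, and F3H, which were picked after their values were seen, showed the same split. FLS1 had 7.33, 14.14 and 14.22 in atscl26, against 9.86, 8.58 and 7.72 in Col0. Without atscl26 replicates 2 and 3 the median of the list was -0.70 and 3 of 21 genes were higher. Those 3 were CYP98A3, MYB111 and MYB12, and CYP98A3 and MYB111 are named after their values were seen. MYB12, an activator of flavonol genes, had 11.04, 12.63 and 12.15 in atscl26, against 7.96, 9.44 and 10.84 in Col0, without overlap (difference 2.52 ± 0.85, and 1.62 without those arrays).

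Other arrays were set beside this split. The 6 atscl26 cortex arrays had means of the flavonoid list of 11.25, 10.35 and 8.79 under KCl and 10.27, 9.07 and 9.27 under KNO3. The 5 Col0 cortex arrays had 10.89, 11.14 and 10.67 under KCl and 10.97 and 11.74 under KNO3. Replicates 2 and 3 of atscl26 epidermis KNO3, at 11.14 and 11.33, lay within the Col0 cortex range and near the highest atscl26 cortex array, and replicate 1, at 8.25, lay below all 3 Col0 epidermis KNO3 arrays. Col0 epidermis KCl replicate 1, another array with a low epidermis score, was at 11.10. The share of cortex cells in these sorts was not measured, and its part in the difference was not tested.

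The aquaporins were the list with the largest median after the 2 cortex genes. Of 18 water channel genes 16 were higher in atscl26, with a median of 1.39, 6 had an unadjusted p under 0.05 and 5 did not overlap, where the shares over all models on the higher side were 3.18 % and 5.57 %. Here too the shares cover models of all levels, and brighter models lay wholly above Col0 more often. The mean of the list was 10.75, 12.13 and 12.94 in atscl26, against 10.64, 10.51 and 10.11 in Col0. Replicate 1 lay just above the highest Col0 epidermis KNO3 array, replicate 2 lay within the range of the 5 Col0 cortex arrays, 11.44 to 12.32, and replicate 3 lay above it. The 6 atscl26 cortex arrays lay between 10.56 and 12.05, and Col0 epidermis KCl replicate 1 was at 13.05. PIP1;5, a plasma membrane channel, had 12.05, 13.01 and 13.85 in atscl26, against 10.70, 7.98 and 9.37 in Col0 (difference 3.62 ± 1.1, unadjusted p = 0.00415, adjusted p = 0.808). TIP2;2, a tonoplast channel, had 8.73, 10.72 and 11.96 in atscl26, against 7.61, 7.39 and 8.68 in Col0 (2.57 ± 0.85). Every atscl26 array was above every Col0 array for both genes, and replicate 1 was the lowest of the 3. TIP2;3, PIP2;3, PIP2;2 and PIP1;3 differed by 2.81 ± 1.06, 2.28 ± 0.77, 2.31 ± 1.04 and 1.40 ± 0.60, the last 2 with overlap. PIP2;2 and PIP2;3 are near-identical neighbours, and cross-hybridisation between them cannot be told apart from signal. Without atscl26 replicates 2 and 3, the median was 0.44, 12 of 18 genes were higher, and the differences of PIP1;5 and TIP2;2 were 2.7 and 0.84.

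**Figure D3:**
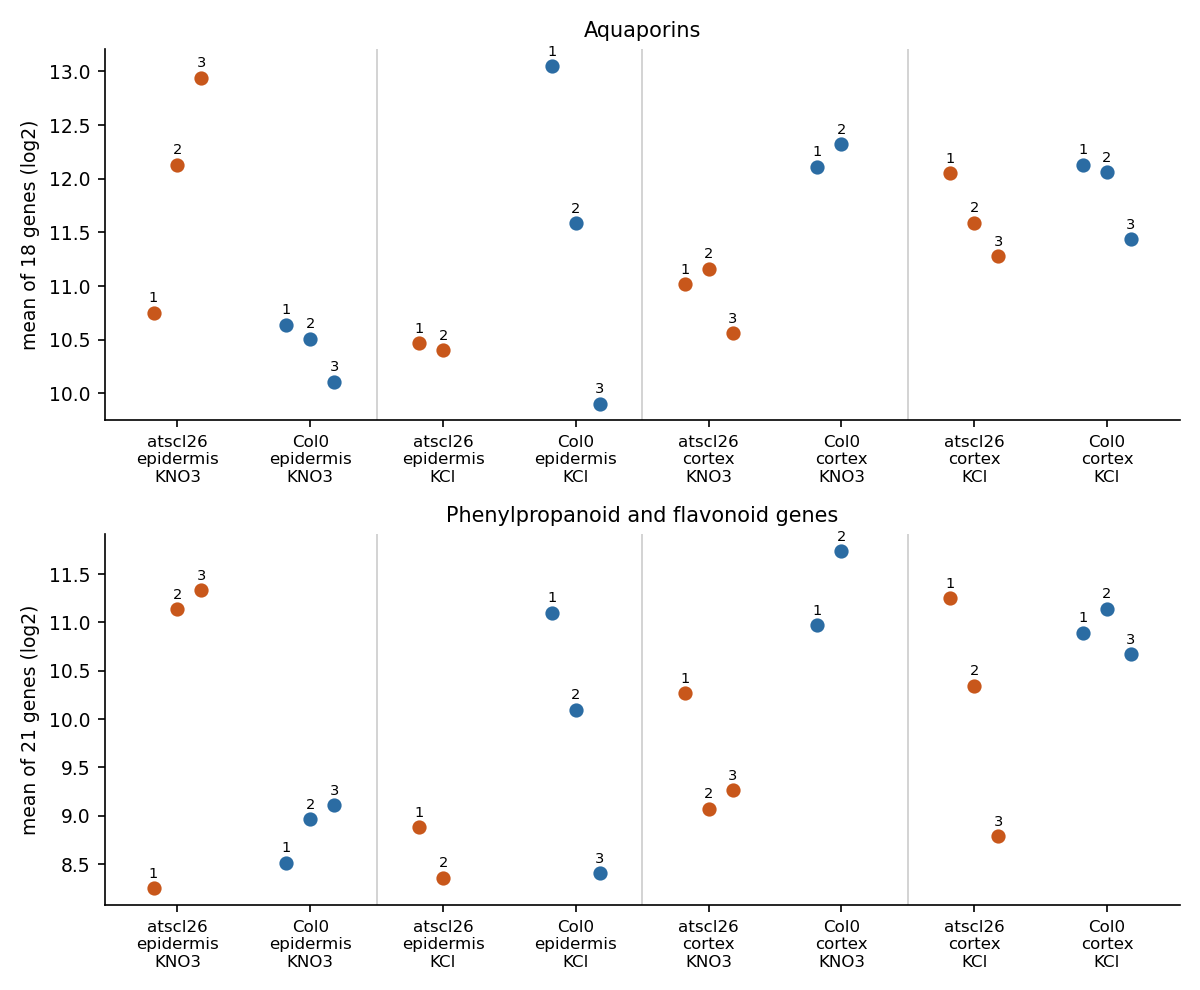
Mean level (log2, vertical axis) of 18 aquaporin genes (upper panel) and 21 phenylpropanoid and flavonoid genes (lower panel) on each array, by labelled group, with replicate numbers above the points. In atscl26 epidermis KNO3, replicates 2 and 3 lie at 12.13 and 12.94 for aquaporins and at 11.14 and 11.33 for flavonoid genes, above replicate 1 and the 3 Col0 epidermis KNO3 arrays.

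The root cap genes FEZ and ARF16 followed the marker split as well. FEZ, a factor of root cap and epidermis stem cells, had 8.59, 6.58 and 6.22 in atscl26, against 8.88, 9.86 and 8.97 in Col0 (difference -2.11 ± 0.73, unadjusted p = 0.00997). ARF16, an auxin response factor of the root cap, had 13.53, 10.87 and 6.96 in atscl26, against 13.76, 13.42 and 13.08 in Col0 (-2.97 ± 1.27). In both genes atscl26 replicate 3 was the lowest array, and without replicates 2 and 3 the differences were -0.65 for FEZ and 0.11 for ARF16. All 7 root cap genes were lower, and without atscl26 replicates 2 and 3 their median of -0.63 became -0.06. In the root hair list, the cellulose synthase-like gene CSLD3 had 13.53, 13.43 and 13.07 in atscl26, against 13.06, 12.14 and 11.62 in Col0 (1.07 ± 0.45, unadjusted p = 0.0269). The late hair genes EXPA7 and EXPA18 were near the lowest levels of the table on all 6 arrays, with differences of -0.31 ± 0.49 and -0.41 ± 0.71.

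Of 17 cell cycle genes 12 were lower in atscl26 and 5 higher, with a median of -0.35. Beside AUR1, the mitotic kinase gene CDKB2;2 had 8.72, 7.87 and 8.36 in atscl26, against 11.22, 11.41 and 9.20 in Col0, without overlap (difference -2.29 ± 0.87, unadjusted p = 0.0165). The list mean was 9.94, 8.93 and 9.15 in atscl26, against 10.91, 9.36 and 9.16 in Col0, so Col0 replicate 1 alone stood above the others. Without that array the median was 0.12, of the opposite sign, and without atscl26 replicates 2 and 3 it was 0.06, but without Col0 replicate 3 it was -0.71.

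Of 29 auxin and lateral root genes 18 were higher (median 0.44). That median was 0.12 without Col0 replicate 3, 0.18 without Col0 replicate 1 and 0.001 without atscl26 replicates 2 and 3. IAA19, an early auxin-induced repressor, had 12.14, 12.59 and 12.90 in atscl26, against 10.21, 10.79 and 11.48 in Col0 (1.72 ± 0.71), and ARF7, which activates lateral root formation, had 11.53, 11.53 and 12.65 in atscl26, against 10.42, 9.83 and 11.48 in Col0 (1.33 ± 0.58). Neither overlapped, though ARF7 in Col0 replicate 3 came close. IAA28, a repressor of lateral roots, differed by 1.2 ± 0.53 and overlapped. With atscl26 replicate 1 alone 15 of the 29 genes were higher. The 21 cytokinin genes were evenly divided, with 10 higher and a median of -0.09 (0.11 without Col0 replicate 3), and IPT5, a synthesis gene, at 1.28 ± 0.67 had the smallest p of the list.

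Phosphate starvation genes held differences in both directions beside PHO2. SQD2, which makes sulfolipids in place of phospholipids, had 10.27, 11.27 and 11.65 in atscl26, against 7.66, 9.36 and 8.47 in Col0, without overlap (difference 2.57 ± 0.73, adjusted p = 0.745). MGD2, a galactolipid synthase, had 8.36, 11.17 and 10.92 in atscl26, against 7.85, 9.29 and 8.58 in Col0 (1.58 ± 0.75), and overlapped. The phosphate transporter PHT1;1 had 13.38, 10.01 and 10.18 in atscl26, against 12.43, 12.54 and 12.52 in Col0, and was singled out after its values were seen. It was above Col0 in replicate 1 and below it in replicates 2 and 3. Of the 14 genes 9 were higher (median 0.39), and without Col0 replicate 1 there were 7 with a median of 0.008. The difference of MGD2 was -0.21 without atscl26 replicates 2 and 3.

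Among 19 iron genes, which include FER1, 6 were higher and the median was -0.21. PYE, a regulator of the iron deficiency response, had 11.51, 9.23 and 10.44 in atscl26, against 9.60, 8.80 and 7.61 in Col0 (1.72 ± 0.71). The uptake genes IRT1 and FRO2, named after their values were seen, differed by -0.46 ± 0.70 and -0.75 ± 0.76 at levels below the array median. Of 16 expansin and xyloglucan enzyme genes 4 were higher (median -0.33, and 0.11 without atscl26 replicates 2 and 3), and EXPA15, at -1.59 ± 0.76, had the smallest p. All 6 reference genes were higher, with a median of 0.42, and UBC9 differed by 0.71 ± 0.38. That shift of bright stable genes has the sign of the brightest class of all models, where the median was 0.19.

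**Figure D4:**
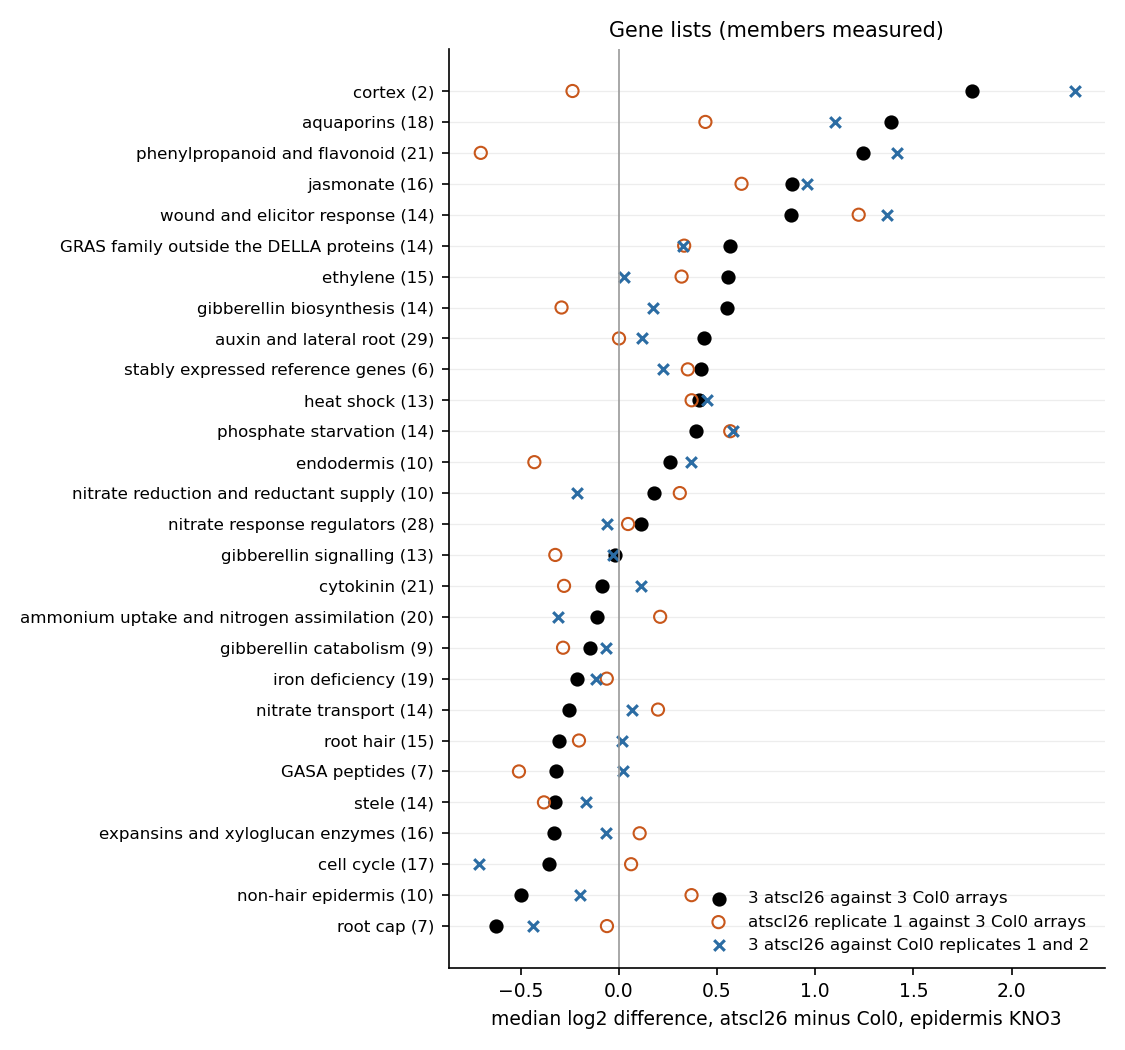
Median log2 difference, atscl26 minus Col0 in epidermis under KNO3 (horizontal axis), of each gene list, with the number of members used in brackets. Black points use all 6 arrays, open circles only replicate 1 of atscl26, and crosses leave out Col0 replicate 3. The flavonoid median lies at 1.24 with all arrays and at -0.70 with atscl26 replicate 1, while the wound and jasmonate medians lie at 0.88 and at 1.22 and 0.62.

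Whether the genotype difference under KNO3 differed from that under KCl was tested in the same fit, with 2 atscl26 and 3 Col0 epidermis arrays under KCl. No model passed an adjusted p under 0.05 (0 %), and 1934 had an unadjusted p under 0.05 (6.14 %), 3.1 % with a positive and 3.03 % with a negative gap. The smallest adjusted p was 0.28. FER1 had a genotype difference of 2.91 under KNO3 and -1.75 under KCl, a gap of 4.65 ± 0.85 (adjusted p = 0.28). LEA4-5, a late embryogenesis abundant protein, differed by 2.39 under KNO3 and -3.60 under KCl (gap 5.99 ± 1.14), and AUR1 by -2.11 and 2.46 (gap -4.57 ± 0.86). SRC2, which had the smallest p of this gap among genes with a symbol, differed by 2.98 and -2.57 (gap 5.55 ± 0.98). In all these genes the sign turned between the treatments, without passing the threshold. They were picked for the smallest p of this same gap, so the turn of sign is a description only. Of the Col0 KCl arrays, replicates 1 and 2 had epidermis scores of -2.44 and -2.32, nearer cortex, and replicate 2 had a median correlation of 0.562.

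The same question for epidermis against cortex under KNO3 used 3 atscl26 and 2 Col0 cortex arrays. Again no model passed (0 %), and 2120 had an unadjusted p under 0.05 (6.73 %), 3.39 % with a positive and 3.33 % with a negative gap, with a smallest adjusted p of 0.061. The emb2738 model differed by -3.51 in epidermis and 2.31 in cortex, a gap of -5.82 ± 0.89 (adjusted p = 0.061). GCD1, a gene needed by gametes, differed by -1.44 in epidermis and 2.97 in cortex (gap -4.42 ± 0.64, adjusted p = 0.061). MAN2 differed by 4.79 in epidermis and -1.65 in cortex (gap 6.44 ± 1.04, adjusted p = 0.0894), and JAZ10 by 2.27 and -1.46 (gap 3.73 ± 0.74). Replicate 1 of Col0 cortex KNO3 had a median correlation of 0.681, and replicates 2 and 3 of atscl26 cortex KNO3 had epidermis scores of -0.84 and 1.48.

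The signs of the 30 named genes were mixed in the other settings, which share no arrays with this comparison. Under KCl in epidermis 5 of the 15 higher and 7 of the 15 lower genes had the same sign, where 46.7 % of all models lay above 0 and 53.3 % below. In cortex under KNO3 5 of the 15 higher and 5 of the 15 lower genes had the same sign, where 43.1 % of all models lay above 0 and 56.9 % below. The median genotype difference of the 15 higher genes was -0.81 under KCl and -0.30 in cortex. For the 15 lower genes the medians were 0.06 and 0.34. Of the gene lists, flavonoid genes had medians of 1.24 in epidermis under KNO3, -1.25 in epidermis under KCl and -1.51 in cortex under KNO3, and aquaporins of 1.39, -0.83 and -1.2. The jasmonate list had 0.88, 0.22 and 0.03, and the wound list 0.88, 0.20 and 0.18.

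**Figure D5:**
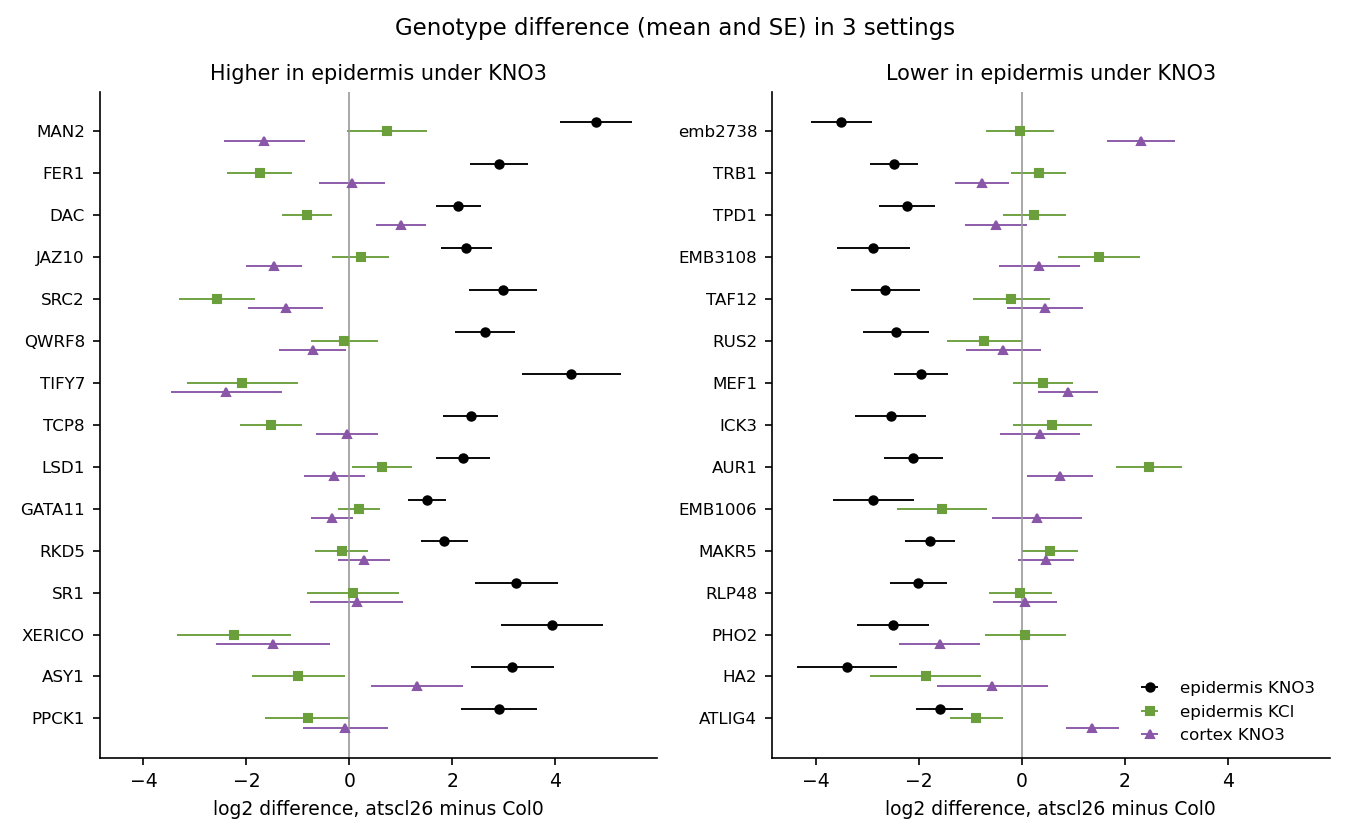
Genotype difference (log2, atscl26 minus Col0, horizontal axis) with its standard error for the 30 named genes in epidermis under KNO3, epidermis under KCl and cortex under KNO3. The 15 higher genes have a median of -0.81 under KCl and -0.30 in cortex, and the 15 lower genes of 0.06 and 0.34.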

How the data were processed

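Per the labels' protocols, RNA of sorted protoplasts was amplified with the Ovation Pico kit, and the NimbleGen probes were built from TAIR10 models. The authors deposited log2 values made by RMA, 1 per transcript model and array; per the labels, 24 arrays were made and the authors removed 2. All 31524 models were fitted with limma 3.58.1 (R 4.3.3), 1 mean per labelled group over all 22 arrays, with Benjamini-Hochberg adjustment over all models and a threshold of 0.05. Symbols came from a TAIR10.1 RefSeq table. Of 433 list members written down, 406 had a matched name or locus and were used. The rest were on the arrays but left out. Named genes were the 15 smallest p-values with a symbol in each direction, the list members with an unadjusted p under 0.05 (otherwise up to 3 with the smallest p), and any member of the nitrate, ammonium, gibberellin, GRAS and marker lists. Marker lists were compared by exact permutation tests, two-sided. The members and lists were chosen with earlier results of these data known. The fits were tested on simulated data. Replicate numbers did not pair the arrays: deviations of same-numbered arrays correlated at 0.03, 0.0004 and -0.02. Other normalizations, filters, weights, a replicate block and left-out arrays were tried. The authors' deposited averages equalled the group means in 6 of 8 groups, both groups compared here included.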

Additional observations from a re-analysis of the deposited data

How the results depend on the processing

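Where no model passed between atscl26 and Col0 epidermis under KNO3 with all arrays, 1 passed with dim models left out (MAN2, adjusted p = 0.0437), 1 with only the 6 arrays fitted (CPUORF47, adjusted p = 0.0464), 91 with array weights, whose estimation did not fully converge, and 14 without arrays of median correlation under 0.85. Leaving out 1 array at a time gave 0 to 1, MAN2 without atscl26 replicate 1 and SRC2 without Col0 replicate 2. With the replicate block 0 models passed. The number with an unadjusted p under 0.05 was 1633 with all arrays, 483 without atscl26 replicates 2 and 3 and 963 with the epidermis score as a covariate. For the gap between KNO3 and KCl, 90 models passed with array weights, 2 without low-correlation arrays and 0 to 2 with 1 array left out. For the gap between epidermis and cortex, 2 passed with median centring, 20 without low-correlation arrays and 0 to 5 with 1 array left out (5 without atscl26 replicate 1). Causes were not tested. The root hair marker difference ran from -0.18 to 0.0846, the endodermis difference from -0.44 to 0.75, the cortex difference from 1.05 to 2.81 and the non-hair difference from -1.21 to -0.28 with 1 array left out. None of the 30 named genes nor SCL26 changed sign in any setting that gave them a value. With dim models left out 26 of these 31 had a value, and with 1 model per locus 28. The groups of the named genes did not overlap, so leaving out arrays of these groups could not turn their sign. The sign of the list median changed in 9 of 28 lists without atscl26 replicates 2 and 3 and in 8 with the score covariate. It changed in 6 without low-correlation arrays and in 2 with quantile normalization. Quantile normalization left 1791 models wholly above Col0 and 2798 wholly below. Median centring moved the median of all models to -0.20, against -0.12. The small number of arrays limits the precision, and the part of dim signal in it was not tested.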

Other observations

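The endodermis list, measured beside the other cell type lists, had 8 of 10 genes higher in atscl26 epidermis under KNO3 than in Col0, with a median difference of 0.26. MYB36, which drives Casparian strip formation, had levels of 6.22 and 10.81 in atscl26 replicates 1 and 2, with replicate 3 slightly above replicate 2, against 6.63, 10.23 and 7.52 in Col0. It was high in 2 atscl26 arrays and in Col0 replicate 2, so the groups overlapped, and without atscl26 replicates 2 and 3 none of the 10 genes was higher (0 of 10, median -0.43). Without Col0 replicate 1 there were 3 of 10 and the median was -0.07. Of the 14 stele genes 4 were higher (median -0.32).

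RIP3, a microtubule-associated partner of ROP GTPases, and ABCE1 stood among the genes with the smallest p for the gaps between settings. RIP3 had a genotype difference of -2.75 in epidermis under KNO3, 3.04 in epidermis under KCl and 3.90 in cortex under KNO3. The gaps were -5.79 ± 1.31 (limma, adjusted p = 0.478) and -6.65 ± 1.31 (adjusted p = 0.276), and neither passed. ABCE1, whose relatives recycle ribosomes, differed by 0.47 in epidermis and -4.98 in cortex under KNO3 (gap 5.45 ± 1.12, adjusted p = 0.331).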
